A study of Homo sapiens with 14 samples.

Results

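The control cells of a pair of human cancer lines were compared by RNA-seq: NUGC4, which the labels call a gastric cancer cell, and HepG2, which they call a hepatocellular carcinoma cell. The 7 libraries used here, of 14 samples in the series, were chosen by their labels as controls. They are 4 libraries of wild-type NUGC4, the parental cells of a knockout experiment, 1 library of NUGC4 cells with the vector control of an experiment on CRISPR interference (CRISPRi) against ARID1A, and 2 libraries of HepG2 cells with the empty vector control of a CTNNB1 overexpression experiment. The vectors' contents are not given for these control cells in the sources used here, and in the CTNNB1 experiment the cassette was delivered by lentivirus. Both lines were grown in RPMI medium with serum, and libraries were made from poly(A) RNA, per the labels. Each organ is stood for by 1 cell line, and wild-type NUGC4 carried no vector, so the line, the vector and whatever else differed between the experiments cannot be told apart. Whether the libraries of a group stem from separate cultures is not in the labels, so every p-value below is set against a spread between libraries that may be technical.

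Hepatocytes make most of the proteins of blood plasma, among them albumin, transport proteins, clotting factors, complement and apolipoproteins, and they hold the urea cycle, bile acid synthesis and much of drug metabolism. Their identity is kept by a network of transcription factors that includes HNF4A, the FOXA factors and CEBPA, and fetal hepatocytes and many liver tumours also make alpha-fetoprotein. The gastric surface is covered by mucous cells that make secreted and membrane mucins, trefoil factors and the stomach form of claudin 18, and gastric tumours often carry intestinal genes too. Liver, stomach and intestine all arise from endoderm, and several factors, HNF4A among them, work in more than one of these organs.

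Libraries held 9167761 to 12879594 counts in NUGC4 wild type, 15990038 in the NUGC4 vector library and 13138681 and 19076795 in HepG2. The share of counts on ribosomal RNA was 8.04% to 11.7% in wild type but 0.165% in the NUGC4 vector library and 0.242% and 0.252% in HepG2, and that on replication-dependent histone genes 0.289% to 0.359%, 0.0249%, 0.00792% and 0.00864%, in the same order. These genes, RN7 RNAs and mitochondrially encoded genes were left out, and every difference between HepG2 and wild type was checked against the NUGC4 vector library, which resembles HepG2 in those shares. A gene is called higher in 1 line where, in both contrasts and with the same sign, edgeR's quasi-likelihood test gave a Benjamini-Hochberg adjusted p under 0.05 and the log2 fold change was 1 or more in size. A gene that was not called may still differ by less than that fold. Levels are CPM, counts scaled to TMM-adjusted library sizes. Log2 fold changes and their SE are HepG2 vector against NUGC4 wild type unless the vector library is named. The SE is the size of the log2 fold change over the square root of the test's F statistic. It is an approximate standard error and understates counting error where 1 line has few counts. "At least" folds are against a floor of 3 counts over the wild-type or HepG2 libraries where that group had none. In bulk RNA, fewer cells that express a gene and less RNA per cell cannot be told apart. How reads shared between genes were counted is not given in the sources used here, so genes with near-identical copies or overlapping neighbours are uncertain. Of 530 list members found by name in the GENCODE v29 annotation, 12 had at least 50% of their exon bases covered by exons of other genes.

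Of 18450 genes tested, 3952 (21.4%) were called higher in HepG2 in both contrasts and 4560 (24.7%) higher in NUGC4. Against wild type alone the counts were 5410 (29.3%) and 6633 (36.0%), and 1458 of the HepG2 calls and 2073 of the NUGC4 calls were not made against the vector library too. These were unequal between kinds of gene: of protein-coding genes called higher in wild type than in HepG2 80.6% were also called against the vector library, of lncRNAs 60.1%, of pseudogenes 46.3% and of other noncoding genes 38.5%. Of those called higher in HepG2 than in wild type the order differed, with 73.0% of protein-coding genes, 87.9% of lncRNAs, 51.2% of pseudogenes and 52.4% of other noncoding genes also called against the vector library. Both contrasts share the HepG2 libraries, and the vector group is 1 library whose spread is assumed to be that of the other groups. The median log2 fold change of all genes tested was -0.17 against wild type and -0.09 against the vector library, so list medians below are set beside values close to 0. Counts of list members called in both contrasts are to be set beside 21.4% for HepG2 and 24.7% for NUGC4. These shares are of genes tested, so they compare with members called among members tested.

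Among the markers of the liver line, ALB, which encodes albumin, stood at 0.249, 0.186, 0 and 0.216 CPM in the 4 wild-type NUGC4 libraries, 0.137 in the NUGC4 vector library and 15370 and 15413 CPM in HepG2. It was called higher in HepG2, with a log2 fold change of 16.36 ± 0.13 (SE) and an adjusted p of 3.9e-20 in edgeR's quasi-likelihood test. That SE understates the error, as ALB had few counts in NUGC4. AFP, alpha-fetoprotein, had no count in any of the 5 NUGC4 libraries and 7799.8 and 8505 CPM in HepG2, at least 111285-fold higher. Scaled by exon length, ALB had rank 1 of 13241 protein-coding genes in HepG2, at 4558 CPM per kilobase, and AFP rank 7. Of the gastric markers, CLDN18, a claudin of the stomach lining, stood at 136, 134, 134 and 141 CPM in wild type and 218 in the vector library with no count in HepG2, at least 1112-fold higher in NUGC4. TFF1, the trefoil peptide of gastric surface mucus, stood at only 0.249, 0.186, 1.05 and 0.325 CPM in wild type and 1.57 in the vector library, against no count in HepG2. Its call rests on few counts: the adjusted p was 0.06 without HepG2 vector replicate 2 and 0.061 with the replicate number as a block. Both hepatic markers were thus at high levels in HepG2, while of the gastric markers CLDN18 was plainly present in NUGC4 and TFF1 was close to the floor there.

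The bases just before the start sites of 5 genes made in HepG2 are printed because all of them hold letters close to a palindrome known from liver promoters. The match sought was GTTAAT, then any base, then the reverse complement of those letters, with up to 2 mismatches. It reads the same on both strands. Each line gives the 150 bases before the start, 5′ to 3′ on the gene's strand, from RefSeq (GRCh38.p14), with the matches in capitals.
ALB, chr4:73404137-73404286, plus strand: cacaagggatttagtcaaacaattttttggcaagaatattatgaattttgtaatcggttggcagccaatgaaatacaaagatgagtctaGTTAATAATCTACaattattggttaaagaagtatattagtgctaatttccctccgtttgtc
AFP, chr4:73436071-73436220, plus strand: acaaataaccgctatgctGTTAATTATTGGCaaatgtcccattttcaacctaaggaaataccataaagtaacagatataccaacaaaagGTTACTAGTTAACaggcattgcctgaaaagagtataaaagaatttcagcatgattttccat
FGA, chr4:154590743-154590892, minus strand: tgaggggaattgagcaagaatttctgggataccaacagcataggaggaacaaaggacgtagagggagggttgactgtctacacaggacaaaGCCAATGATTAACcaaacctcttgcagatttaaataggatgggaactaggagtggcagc
FGB, chr4:154562830-154562979, plus strand: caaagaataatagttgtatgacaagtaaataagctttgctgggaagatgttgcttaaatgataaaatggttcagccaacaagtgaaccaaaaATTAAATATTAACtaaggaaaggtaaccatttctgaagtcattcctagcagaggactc
APOH, chr17:66229416-66229565, minus strand: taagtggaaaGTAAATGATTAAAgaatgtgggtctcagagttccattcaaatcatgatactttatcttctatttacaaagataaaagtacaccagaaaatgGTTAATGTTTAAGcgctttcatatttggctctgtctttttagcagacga
ALB, FGA and FGB hold 1 match each within these bases, and AFP and APOH hold 2. In ALB and AFP 1 match covers the same bases, -61 to -49 from the start. Over windows of 250 bases before to 50 after the start, 357 of the 27305 RefSeq promoters searched (1.31%) held such a match. Of the list members, 30 held a match, and 24 of these are on the liver side. Of the 30, 20 were called higher in HepG2, HNF4A, CFI, C8A, LIPC, NR1H4 and KLB among them. All 20 are among the 24 on the liver side. With or without a match, 97 of the 151 liver-side members searched were called higher in HepG2. A link between the letters and the calls was not tested. The 4 with a match that were called higher in NUGC4 were UGT1A1, ADH1C, ELF1 and ANXA10. No share over the lists is given, because RefSeq promoters were at hand for only 73.3% of liver-side members and 62.3% of gut-side members, too few for such a check. Other letters were sought in the same windows on both strands without mismatch. The HNF4 letters CAAAGTCCA were in 0.359% of all promoters. For FOXA factors TGTTTAC was in 3.41%. For GATA factors AGATAA was in 10.5% of all promoters searched. For the CDX factors the share was 10.1%, with TTTATNG as the letters. The HNF4 letters were in the promoters of AHSG, PROZ, F10 and CYP2B6, called higher in HepG2, and of MUC13, FUT2 and CYP2A6, called higher in NUGC4. The CDX letters read from the other strand overlap those of many TATA boxes. A match is a description of letters, and no match says only that they are not in the window.

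**Figure D1:**
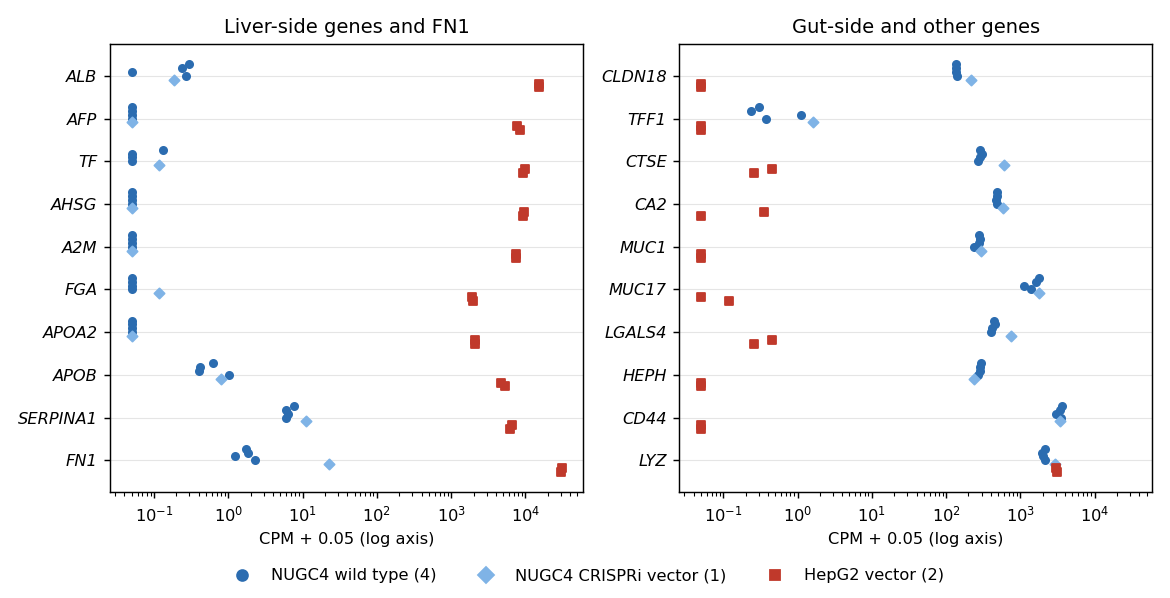
Level of 20 genes in each of the 7 libraries, as CPM + 0.05 on a log axis, so that a point at 0.05 is a library with no count. On the left the 2 HepG2 libraries lie above all NUGC4 libraries for each of the 10 genes, and on the right the reverse holds for 9 genes, LYZ being the exception.

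Of 32 plasma carriers and genes of the fetal liver, 30 were tested. Of the 30, 27 were called higher in HepG2, beside 21.4% of all genes tested. Of the other members GC and ITIH4 were not called, APCS and SPP2 were too low to test, and CRP, an acute-phase protein, was called higher in NUGC4. The median log2 fold change of the 30 tested was 10.2, or 9.90 with genes that had few or no counts in 1 line at their bound or ratio. TF, the iron carrier transferrin, showed 1 count over all wild-type libraries together and 1 in the vector library, and stood at 9901 and 9340 CPM in HepG2, a ratio of 388852 to wild type with a 95% exact counting interval of 69791 to 15358882. AHSG, the mineral-binding fetuin A, had no count in NUGC4 and 9609 and 9177 CPM in HepG2, at least 126693-fold higher. RBP4, which carries retinol, and ITIH2, a heavy chain that binds hyaluronan, were likewise at 0 in all 5 NUGC4 libraries, with 1052 and 1031 CPM of RBP4 and 3526 and 3722 CPM of ITIH2 in HepG2. SERPINA1, the elastase inhibitor alpha-1-antitrypsin, was not silent in NUGC4. It stood at 7.65, 5.94, 6.29 and 5.95 CPM in wild type, 10.9 in the vector library and 6544 and 6203 in HepG2, a log2 fold change of 9.93 ± 0.09 (SE). AMBP, the precursor of alpha-1-microglobulin and bikunin, stood at 0.233 to 2.06 CPM in wild type and 1897 and 1794 in HepG2.

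Among the fetal and imprinted members, IGF2, a growth factor, stood at 73.1 to 95.1 CPM in wild type, 139.7 in the vector library and 6509 and 6739 in HepG2. Its log2 fold change was 6.31 ± 0.09 (SE), with the limit that counts may be shared with the overlapping INS-IGF2. PEG10, a retrotransposon-derived imprinted gene, stood at 8.03 to 10.6 CPM in wild type, 10.6 in the vector library and 2607 and 2880.1 in HepG2. DLK1, a Notch-family ligand of hepatoblasts, had no count in NUGC4 and 614 and 616 CPM in HepG2, at least 8337-fold higher. GPC3, a cell-surface proteoglycan used as a liver tumour marker, stood at 0 to 0.649 CPM in wild type and 51.5 and 45.8 in HepG2. Scaled by exon length, TTR, which carries thyroid hormone, stood at 23.2 CPM per kilobase in HepG2, beside 4558 for ALB. HPX, which carries heme, stood at 0.814, although both TTR and HPX were called higher in HepG2 than in NUGC4. The counting tool and its use of strand are not given, and their part in the low TTR value was not tested. CRP stood at 0.166, 1.11, 0.698 and 0.216 CPM in wild type and 4.58 in the vector library, with no count in HepG2, and was too low to test without wild-type replicate 2. ORM1 and ORM2 are near-identical copies, both at 0 in NUGC4. In HepG2 ORM1 had 212 and 222 CPM and ORM2 had 171 and 159 CPM, and the split between them is uncertain.

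Coagulation and fibrinolysis genes were called higher in HepG2 for 21 of 25 members, with a median log2 fold change of 9.29 over the 23 tested, or 7.85 at bounds. The 3 chains of fibrinogen, the clot-forming protein, are encoded side by side and were all high in HepG2: FGA had 1889 and 1947 CPM, FGB 261 and 285 and FGG 828 and 878. In NUGC4 the only count of any chain was 1 of FGA in the vector library. FGA was at least 26050-fold higher, FGB at least 3728-fold and FGG at least 11611-fold. F2, prothrombin, had no count in NUGC4 and 863 and 844 CPM in HepG2. The inhibitors followed the factors: SERPIND1, heparin cofactor II, had no count in NUGC4 and 616 and 606 CPM in HepG2, and SERPINF2, the plasmin inhibitor, stood at 0.831 to 1.3 CPM in wild type and 683 and 686 in HepG2 (log2 fold change 9.29 ± 0.12, SE). SERPINA5, the protein C inhibitor, stood at 0 to 0.279 CPM in wild type and 644 and 619 in HepG2. FGL1, a fibrinogen-like secreted protein, stood at 2.97 to 5.19 CPM in wild type and 309 and 336 in HepG2.

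A few clotting genes departed from this. F5, the cofactor of prothrombin activation, was detected in NUGC4 at 3.14 to 5.48 CPM in wild type and 14.1 in the vector library, and was called higher in HepG2 at 209 and 240.3 CPM. F12, the contact factor, was called against wild type (log2 fold change 1.53) but not against the vector library (0.31, adjusted p = 0.21 in edgeR's quasi-likelihood test), where it stood at 20.4 CPM beside 27.6 and 23.1 in HepG2. KLKB1, plasma prekallikrein, was the 1 member called higher in NUGC4, at 16.7, 16.3, 15.9 and 19.1 CPM in wild type, 17.1 in the vector library and 3.19 and 4.15 in HepG2. F9 had no count in any of the 7 libraries, and HRG was too low to test. The F12 and KLKB1 libraries of NUGC4 did not overlap those of HepG2.

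Complement genes were called higher in HepG2 for 17 of 24 members, with a median log2 fold change of 7.34 over the 19 tested, or 7.04 at bounds. C3, on which all activation routes converge, stood at 9.97, 11.5, 15.5 and 11.1 CPM in wild type, 11.3 in the vector library and 2889.6 and 2668 in HepG2, a log2 fold change of 7.87 ± 0.12 (SE). C2 stood at 1.63 to 2.6 CPM in wild type and 520.5 and 478 in HepG2, and C4A had 557 and 537 CPM there. C4B, a near-identical neighbour of C4A with which reads can be split, had 482 and 476 CPM in HepG2. CFB, a protease of the alternative pathway, was plainly present in NUGC4, at 73.1, 73.2, 78 and 73.5 CPM in wild type and 90.9 in the vector library, and was still called higher in HepG2 (415 and 397 CPM, log2 fold change 2.45 ± 0.07, with 45.5% of its exon bases shared with other genes). Of the regulators, CFI, which cleaves C3b and C4b, had no count in wild type and 217 and 235 CPM in HepG2. The terminal components were uneven: C5 reached 163 and 179 CPM, C8A 50.4 and 51.2 and C8B 10.1 and 9.48 in HepG2, while C6 and C9 stayed under 1 CPM there and C7 had no count in any library.

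Apolipoproteins and genes of lipoprotein assembly were called higher in HepG2 for 19 of 23 members and higher in NUGC4 for 2, with a median log2 fold change of 6.12 over the 21 tested, or 5.92 at bounds. APOA2, of high-density lipoprotein, had no count in NUGC4 and 2119.7 and 2074 CPM in HepG2, at least 28343-fold higher. APOH, beta-2-glycoprotein I, was also at 0 in NUGC4, with 1755 and 1767 CPM in HepG2. APOB, the scaffold of low-density lipoprotein, stood at 0.582, 0.372, 0.349 and 0.974 CPM in wild type, 0.751 in the vector library and 4656 and 5331 in HepG2, a log2 fold change of 13.08 ± 0.14 (SE). MTTP, which loads lipid onto APOB, stood at 0 to 0.325 CPM in wild type and 71.2 and 76.4 in HepG2. APOA1 stood at 3.35 to 6.17 CPM in wild type and 2359 and 2264 in HepG2. APOE stood at 0 to 0.464 CPM in wild type and 2047 and 1881 in HepG2. SCARB1, the receptor for high-density lipoprotein, was called higher in HepG2 (77.8 to 93.7 CPM in wild type, 528 and 489 in HepG2). TM6SF2, of lipoprotein secretion, was called higher in NUGC4 at 28 to 38 CPM in wild type and 6.09 and 6.85 in HepG2.

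**Figure D2:**
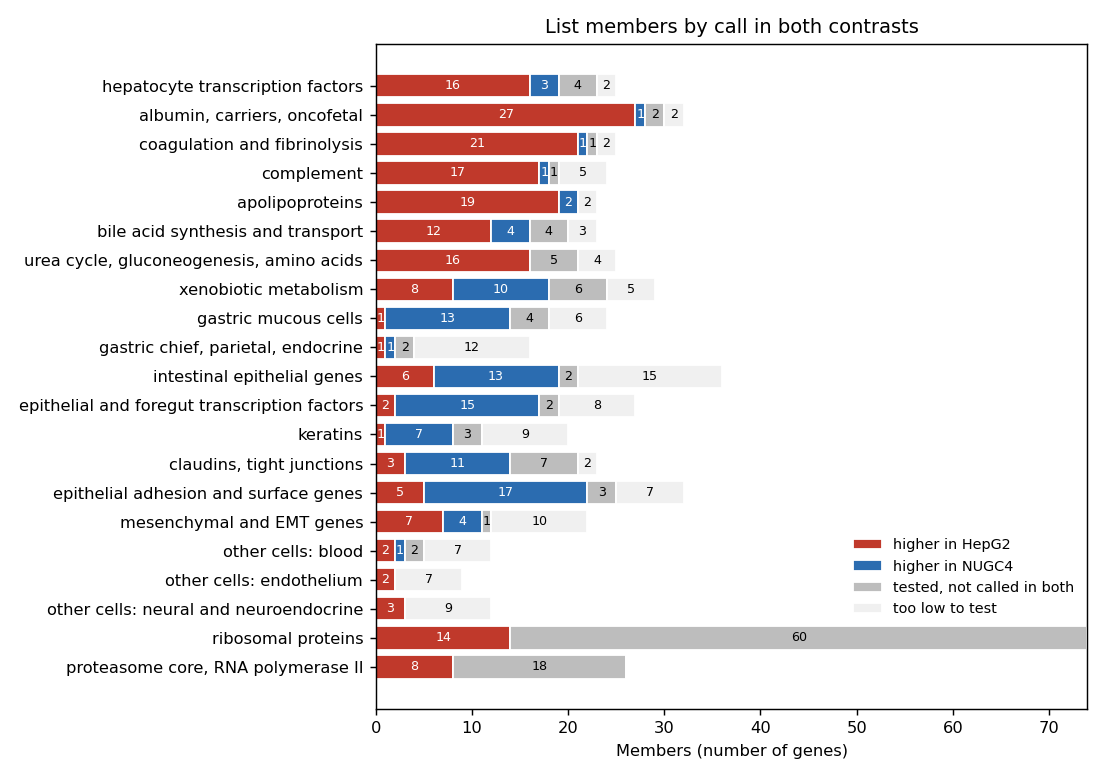
Number of members of each of the 21 gene lists called higher in HepG2 in both contrasts, called higher in NUGC4, tested but not called in both, and too low to test. Calls for HepG2 fill most of the albumin, coagulation, complement and apolipoprotein lists, and calls for NUGC4 outnumber them in xenobiotic metabolism (10 to 8) and in the gastric mucous, intestinal, epithelial factor, keratin, junction and adhesion lists.

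The genes of liver metabolism differed less uniformly than the secreted proteins. Of 23 bile acid genes 20 were tested, with a median log2 fold change of 4.96. Of the 20, 12 were called higher in HepG2 and 4 higher in NUGC4, beside 21.4% and 24.7% of all genes tested. CYP27A1, which starts the acidic route of synthesis, stood at 0.433 to 1.51 CPM in wild type and 268 and 263 in HepG2. CYP7A1, the first enzyme of the main route, was called higher in HepG2 but reached only 1.5 and 1.45 CPM there. KLB, the co-receptor through which FGF19 represses that enzyme, stood at 0 to 0.249 CPM in wild type and 36.1 and 38.8 in HepG2, while its partner FGFR4 was not called (259, 287, 342 and 264 CPM in wild type, 262 in the vector library, 412 and 399 in HepG2). The sinusoidal uptake carriers were on the NUGC4 side. SLCO1B3, which shares 54.5% of its exon bases with another gene on its strand, stood at 54.4, 46.1, 40.3 and 50.7 CPM in wild type, 28 in the vector library and 0.0998 and 0.346 in HepG2. SLCO1B1 stood at 18.1, 13.5, 13.3 and 14.9 CPM in wild type, 9.42 in the vector library and 0.0998 and 0.0692 in HepG2. Both carriers were called higher in NUGC4 with no overlap between the lines, and the liver's other uptake carrier, SLC10A1, was too low to test. CYP7B1, an oxysterol hydroxylase, was also called higher in NUGC4 (7.1 to 7.57 CPM in wild type, 0 and 0.0692 in HepG2), as was BAAT, which conjugates bile acids to amino acids (15.8 to 19.7 CPM in wild type, 5.89 and 6.85 in HepG2). ABCC2, an export pump of the apical membrane, was present in both lines and not called (327 to 364 CPM in wild type, 403 in the vector library, 601 and 601 in HepG2).

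In the urea cycle, gluconeogenesis and amino acid breakdown, 16 of 25 members were called higher in HepG2, 5 were not called and 4 were too low to test. The median log2 fold change over the 21 tested was 2.62 against the vector library. The urea cycle itself was uneven. CPS1, its first enzyme, stood at 0.0831 to 0.372 CPM in wild type and 70.8 and 70.0 in HepG2, and ARG1, its last, at 0 in NUGC4 and 4.99 and 4.85 CPM in HepG2. OTC, the second enzyme, was too low to test in either line, and neither ASS1 (129.8 to 152 CPM in wild type, 96 and 97.3 in HepG2) nor ASL (68.6 to 75.7 CPM in wild type, 73.5 and 69.4 in HepG2) was called. Of gluconeogenesis, G6PC1, the glucose-releasing phosphatase, stood at 8.14, 8.82, 8.15 and 5.63 CPM in wild type, 5.26 in the vector library and 199 and 189 in HepG2. The mitochondrial PCK2 stood at 24.3 to 29.1 CPM in wild type and 653 and 667 in HepG2, whereas the cytosolic PCK1 was not called (3.66 to 5.41 CPM in wild type, 6.19 and 5.33 in HepG2). HPD, of tyrosine breakdown, stood at 0 to 0.325 CPM in wild type and 471 and 456 in HepG2. HGD, a later enzyme of the same route, was not called (112, 113, 106 and 108 CPM in wild type, 152 in the vector library, 128 and 128 in HepG2). TAT, an adult-liver enzyme of that route, reached only 7.98 and 9.76 CPM in HepG2, and TDO2, SDS and GLYAT had no count in any library.

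Xenobiotic metabolism was the liver-side list with more calls for NUGC4 than for HepG2. Of 29 members 24 were tested, and of these 10 were called higher in NUGC4 and 8 higher in HepG2. Of all genes tested 24.7% and 21.4% were, so calls for NUGC4 were the more frequent there too. The median log2 fold change of the 24 tested was -0.58. CYP3A5, a drug-oxidising cytochrome also found in the gut, stood at 153, 129, 125 and 141 CPM in wild type, 116 in the vector library and 5.99 and 6.58 in HepG2, a log2 fold change of -4.44 ± 0.14 (SE). UGT1A1, which conjugates bilirubin, stood at 60.0, 56.4, 60.1 and 60.1 CPM in wild type, 58.6 in the vector library and 6.29 and 6.51 in HepG2, with the limit that 49.9% of its exon bases are shared with other UGT1A genes. CYP2C19, another drug-oxidising cytochrome, stood at 41.7 to 48.7 CPM in wild type with no count in HepG2. It stood at 12.2 CPM in the vector library, a log2 fold change of -1.87 against wild type. GSTA1, a glutathione transferase, stood at 43.2 to 52 CPM in wild type and 7.29 and 6.51 in HepG2, and its near-identical copy GSTA2 at 63.2 to 70.0 CPM in wild type and 3.19 and 3.53 in HepG2. The alcohol dehydrogenases split: ADH1C stood at 23.2 to 30.3 CPM in wild type with no count in HepG2, whereas ADH4 and ADH6 were called higher in HepG2 (ADH6 at 2.49 to 3.99 CPM in wild type and 153 and 160.1 in HepG2). On the HepG2 side, CES1, the liver carboxylesterase, had 1 count in wild type and 333 and 322 CPM in HepG2, SULT2A1, a steroid sulfotransferase, had none in NUGC4 and 143 and 146 CPM, and POR, the electron donor of the cytochromes, stood at 66 to 85.4 CPM in wild type and 492 and 489.6 in HepG2. CYP3A4, a main drug-oxidising enzyme of adult liver, stayed under 2 CPM in all 7 libraries.

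Of 24 genes of gastric mucous cells 18 were tested, and 13 of these were called higher in NUGC4, beside 24.7% of all genes tested. The median log2 fold change of the 18 was -6.71, or -4.92 at bounds. CTSE, an aspartic protease of gastric surface cells, stood at 286, 299.6, 287 and 265 CPM in wild type, 595 in the vector library and 0.399 and 0.208 in HepG2 (log2 fold change -9.90 ± 0.18, SE). CA2, a carbonic anhydrase, stood at 490.3, 478, 468 and 482 CPM in wild type, 574 in the vector library and 0.299 and 0 in HepG2. MUC1, a membrane mucin, stood at 277, 282, 281 and 239 CPM in wild type and 295 in the vector library with no count in HepG2, at least 2206-fold higher. AGR2, a chaperone of mucin folding, stood at 110.3 to 129 CPM in wild type and 2.69 and 2.84 in HepG2, and FUT2, which makes the secretor blood-group antigen, at 91 to 108 CPM in wild type and 0.399 and 0.346 in HepG2. AQP5, a water channel, and CAPN8, a stomach calpain, stood at 28.1 to 34.2 and 32.7 to 35.8 CPM in wild type with no count in HepG2.

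Several defining genes of gastric mucus were low or at 0 in NUGC4. MUC5AC, the gel-forming mucin of surface cells, stood at 1.08, 1.21, 0.233 and 0.541 CPM in wild type, 2.19 in the vector library and 0.2 and 0.346 in HepG2, and was called higher in NUGC4 against the vector library only (log2 fold change -2.90, beside -1.46 against wild type). MUC6, that of gland cells, stood at 1.16 to 2.32 CPM in wild type and 6.97 in the vector library with no count in HepG2, and was called higher in NUGC4, at least 13.2-fold. TFF2, GKN1 and GKN2, which are secreted, and the mucin-glycosylating enzyme B3GNT6 had no count in any of the 7 libraries. LYZ, lysozyme, was not called, with 2111, 1966, 1984 and 2132 CPM in wild type, 2924 in the vector library and 3034 and 3116 in HepG2. Its log2 fold change was 0.59 ± 0.06 (SE) against wild type and 0.07 ± 0.09 against the vector library. By CPM per kilobase LYZ had rank 3 in wild type, 3 in the vector library and 11 in HepG2, of 13241 protein-coding genes. ANG, a secreted ribonuclease, was the 1 member called higher in HepG2 (2.68 to 3.08 CPM in wild type, 152 and 142 in HepG2). It shares 61.4% of its exon bases with other genes, RNASE4 among them.

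Genes of chief, parietal and endocrine cells were nearly silent in both lines: 12 of 16 were too low to test. The pepsinogens PGA3, PGA4 and PGA5, gastric lipase LIPF, intrinsic factor CBLIF and the proton pump subunit ATP4B had no count in any library. PGC, pepsinogen C, was called higher in HepG2 (0.997, 2.42, 1.75 and 1.3 CPM in wild type, 2.12 in the vector library, 49.3 and 55.6 in HepG2). KCNQ1, a potassium channel of parietal and other epithelial cells, was called higher in NUGC4 (69.3 to 86.8 CPM in wild type, 0.0998 and 0.346 in HepG2). The median of the 4 tested was -0.63.

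Of 36 intestinal genes 21 were tested. Of the 21, 13 were called higher in NUGC4 and 6 higher in HepG2, where 24.7% and 21.4% of all genes tested were. The median log2 fold change of the 21 was -3.78, or -3.01 at bounds. MUC17, a membrane mucin of the brush border, stood at 1788, 1629, 1126 and 1386 CPM in wild type, 1766 in the vector library and 0 and 0.0692 in HepG2, where it had 1 count. The ratio to wild type was 37047, with a 95% counting interval of 6649 to 1463285. MUC13 stood at 155 to 180.3 CPM in wild type, 336 in the vector library and 6.09 and 7.13 in HepG2. MUC3A, which shares sequence with MUC12, stood at 85.3 to 113 CPM in wild type, 387 in the vector library and 1.3 and 2.49 in HepG2. LGALS4, a gut galectin, stood at 446, 460.4, 409 and 407 CPM in wild type, 736 in the vector library and 0.399 and 0.208 in HepG2. HEPH, an iron oxidase of enterocytes, stood at 266 to 291 CPM in wild type with no count in HepG2. ANPEP, a brush-border peptidase that liver also makes, was high in both lines and called higher in NUGC4 (1227 to 1547 CPM in wild type, 1065 in the vector library, 426 and 429.7 in HepG2). Many defining genes of intestine were missing: CDX1, OLFM4 and CEACAM5 had no count in any library, and CDH17, MUC2, TFF3, KRT20 and SI stayed under 1 CPM in all 7.

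The intestinal genes called higher in HepG2 include FABP1, a fatty acid carrier of both liver and gut, at 0.166, 0.279, 0.466 and 0.433 CPM in wild type, 1.64 in the vector library and 466 and 457 in HepG2. MEP1A, a metalloprotease, had no count in wild type and 147 and 144 CPM in HepG2. TM4SF5, a tetraspan membrane protein, stood at 28.4 to 37.9 CPM in wild type and 149 and 148 in HepG2, and FCGBP, a mucus protein, at 12.7 to 17.3 CPM in wild type and 46.9 and 46 in HepG2. LGR5, a Wnt-responsive receptor of stem cells, stood at 72.3, 73.2, 55.9 and 71.1 CPM in wild type, 52 in the vector library and 130.2 and 156 in HepG2 (log2 fold change 1.07 ± 0.11, SE). ISX, an intestinal homeobox factor, was at 0 in NUGC4 and 3.69 and 2.28 CPM in HepG2. VIL1, the microvillus protein villin, was not called, at 239 to 271 CPM in wild type and 408 and 401 in HepG2.

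**Figure D3:**
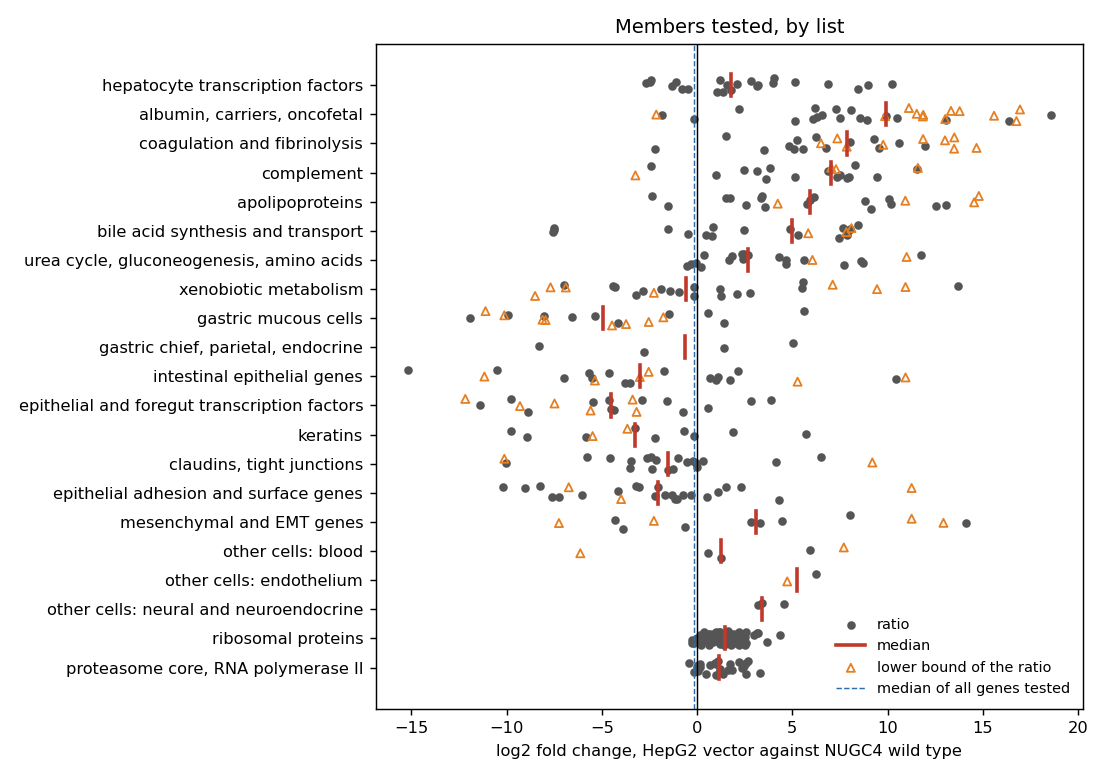
Log2 fold change of every tested member, HepG2 vector against NUGC4 wild type, by list. Circles are fitted fold changes or count ratios, open triangles are lower bounds for genes with no count in 1 group, red bars are list medians at bounds and the dashed line is the median of all genes tested (-0.17). Medians lie between 5.92 and 9.90 for the 4 lists of secreted liver proteins, at -0.58 for xenobiotic metabolism and at -4.92 for gastric mucous genes.

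Of 25 hepatocyte transcription factors, 16 were called higher in HepG2, 3 higher in NUGC4, 4 in neither and 2 were too low to test, with a median log2 fold change of 1.80. That median is far below those of the secreted proteins, and several of the factors were present in both lines. HNF4A, the nuclear receptor at the centre of hepatocyte identity, stood at 198, 214, 231 and 171 CPM in wild type, 164 in the vector library and 526 and 513 in HepG2, a log2 fold change of 1.35 ± 0.09 (SE). The lines did not overlap, but the lowest NUGC4 library still held 164 CPM. CEBPA, a leucine-zipper factor of liver and fat, stood at 37.1 to 42.8 CPM in wild type, 60.5 in the vector library and 136 and 138 in HepG2. Of the FOXA pioneer factors, FOXA2 showed the widest gap (6.73, 6.59, 5 and 7.03 CPM in wild type, 13.7 in the vector library, 108 and 98.2 in HepG2), then FOXA3 (6.29 to 10.6 CPM in wild type, 7.17 in the vector library, 36.2 and 38 in HepG2). FOXA1, at 42.4 to 47.6 CPM in wild type, 42.6 in the vector library and 87.4 and 94.4 in HepG2, passed the fold limit narrowly, with a log2 fold change of 1.04 ± 0.09 that fell to 0.99 without HepG2 vector replicate 2 and with the replicate block and to 0.89 when only protein-coding genes were fitted.

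Other hepatocyte factors were also called higher in HepG2. ONECUT1 had 1 count in wild type, none in the vector library and 29.5 and 29.6 CPM in HepG2, a ratio of 1201 with a 95% counting interval of 215 to 47492. GATA4, needed for liver bud growth, stood at 0.0831 to 0.116 CPM in wild type, 0 in the vector library and 51.5 and 56.3 in HepG2. NR1H4, the bile acid receptor, stood at 0.0831 to 0.349 CPM in wild type, 0.341 in the vector library and 52.7 and 57.6 in HepG2. Its target NR0B2 stood at 19.8 to 29.6 CPM in wild type, 48.6 in the vector library and 218 and 233 in HepG2. TBX3, a T-box factor of early liver, stood at 0.186 to 1.05 CPM in wild type and 66.3 and 73.3 in HepG2, and PROX1, of hepatoblast migration, at 4.74 to 6.05 CPM in wild type and 83.3 and 89.3 in HepG2. HHEX, of early liver and pancreas, stood at 12.6 to 16.5 CPM in wild type and 104 and 109 in HepG2, and MLXIPL, a glucose-sensing factor, at 66.7 to 92.2 CPM in wild type and 186 and 188 in HepG2. NR2F1 (43.4 and 49.6 CPM in HepG2) and CREB3L3 (13.9 and 13.8 CPM) were among them.

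Some factors of this list went the other way. HNF4G, the gut paralog of HNF4A, stood at 62.4, 63.3, 50.4 and 66.2 CPM in wild type, 32.5 in the vector library and 9.78 and 12.9 in HepG2. NR5A2, a nuclear receptor of liver, pancreas and gut, stood at 114, 94.5, 91 and 108 CPM in wild type, 40.6 in the vector library and 14.5 and 17.6 in HepG2. Both were called higher in NUGC4, and their libraries did not overlap between the lines. For both the vector library lay between wild type and HepG2. ONECUT2, the paralog of ONECUT1, was at 175 to 205 CPM in wild type and 72.5 and 79 in HepG2. It was called against wild type (log2 fold change -1.32) but missed the fold limit against the vector library (-0.87), as did PPARA (-1.12 and -0.77). NR1I2 was called against the vector library (-1.23) but not against wild type (-0.80), and NR2F2 in neither contrast.

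Of 27 epithelial and foregut factors, 15 were called higher in NUGC4 and 2 higher in HepG2, with a median log2 fold change of -5.47 over the 19 tested, or -4.54 at bounds. EHF, an ETS factor of mucosal epithelium, stood at 575, 547, 534 and 599 CPM in wild type and 598 in the vector library with no count in HepG2, at least 4600.4-fold higher. KLF5, a factor of proliferating gut epithelium, stood at 546, 502, 415 and 515 CPM in wild type, 673 in the vector library and 11.1 and 11.2 in HepG2. GATA6 stood at 178, 184, 179 and 188 CPM in wild type, 152 in the vector library and 5.89 and 8.51 in HepG2 (log2 fold change -4.63 ± 0.13, SE), the reverse of its relative GATA4. GRHL2 and the splicing regulator ESRP1, both of epithelial integrity, stood at 68.5 to 82.5 and 102 to 119 CPM in wild type with 0 and 1 counts in HepG2, whereas ESRP2 was not called (85.1 to 105 CPM in wild type, 51.5 and 55.7 in HepG2). ELF3 was called higher in NUGC4 and stood apart in the vector library, at 182, 203, 201 and 179.8 CPM in wild type, 637 there and 27.4 and 24.6 in HepG2. PDX1 and HOXA13 stood at 5.12 to 7.06 and 18.5 to 24.6 CPM in wild type and at 0 in HepG2. CDX2, the intestinal master factor, stood at 4.4, 5.11, 7.22 and 4.76 CPM in wild type and 5.6 in the vector library, with 1 count in HepG2. SOX2, the foregut and stomach factor, had no count in any of the 7 libraries, and SOX9 was not called (169 to 189 CPM in wild type, 260 and 266 in HepG2). GRHL1 (2.14 to 4.54 CPM in wild type, 23 and 25.4 in HepG2) and FOXQ1 (11.1 to 14.7 CPM in wild type, 182 and 182 in HepG2) were called higher in HepG2.

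**Figure D4:**
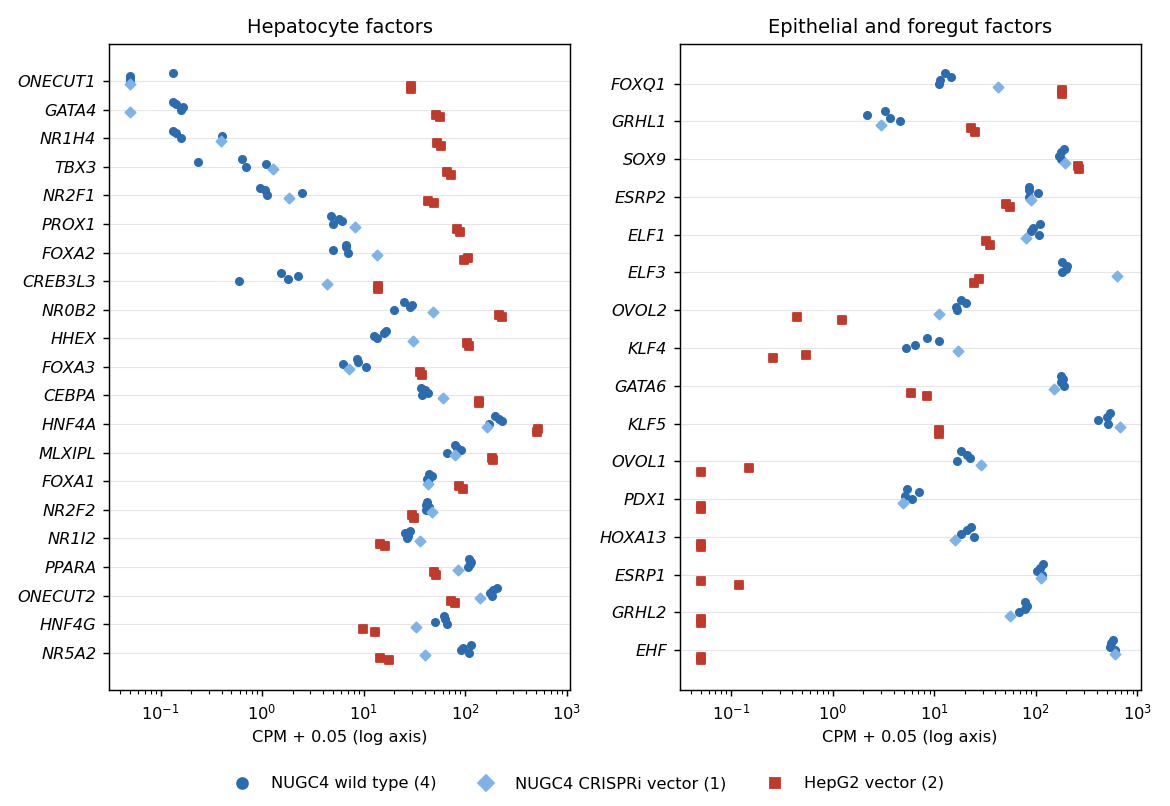
Level of factors that reached 5 CPM in either line in each of the 7 libraries, as CPM + 0.05 on a log axis, ordered by log2 fold change. HNF4A lay between 164 and 231 CPM in NUGC4 and at 513 and 526 CPM in HepG2, whereas ONECUT1 and GATA4 in NUGC4, and EHF and GRHL2 in HepG2, lie at or near the left edge.

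Both lines held the keratins of simple epithelium. KRT8 stood at 2452, 2568, 2518 and 2692 CPM in wild type, 5124 in the vector library and 1639 and 1526 in HepG2. Its partner KRT18 stood at 1111, 1176, 1219 and 1258 CPM in wild type, 2271 in the vector library and 1102 and 1017 in HepG2. Against wild type neither was called, with log2 fold changes of -0.69 and -0.17. Against the vector library both were called higher in NUGC4, at -1.70 (adjusted p = 6.7e-11) and -1.10 (adjusted p = 4.6e-08, edgeR's quasi-likelihood test). KRT19, a keratin of ducts and gut, was called higher in NUGC4 (973, 1056, 1130.1 and 1198 CPM in wild type, 2015 in the vector library, 118 and 107 in HepG2), as were KRT7 (65.2 to 80.2 CPM in wild type, 0.2 and 0 in HepG2) and KRT17 (52.6 to 71.1 CPM in wild type, 0 and 0.208 in HepG2). In all, 11 of 20 keratins were tested and 7 of these were called higher in NUGC4, beside 24.7% of all genes tested. The 1 called higher in HepG2 was KRT23 (1.51 to 2.7 CPM in wild type, 99.3 and 109 in HepG2). The median log2 fold change was -3.28 over the 11 tested. The log2 fold changes of KRT8, KRT18 and KRT19 in the vector library against wild type were 1.00, 0.93 and 0.89.

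Of 23 tight junction genes 21 were tested. Of these, 11 were called higher in NUGC4 and 3 higher in HepG2, beside 24.7% and 21.4% of all genes tested. Their median log2 fold change was -1.55. CLDN7 stood at 121, 128, 132 and 127 CPM in wild type, 201 in the vector library and 0.0998 and 0.138 in HepG2. CLDN4 stood at 199 to 252 CPM in wild type, 686 in the vector library and 47.6 and 52.4 in HepG2. CLDN2, a pore-forming claudin, stood at 89.1 to 107 CPM in wild type, 279 in the vector library and 2.3 and 1.32 in HepG2. The reverse held for CLDN1 (7.62 to 11.6 CPM in wild type, 163 and 183 in HepG2) and for CLDN6, an embryonic claudin with no count in NUGC4 and 46.2 and 41.5 CPM in HepG2. The scaffold TJP1 was called higher in NUGC4 (200.1 to 233 CPM in wild type, 67.6 and 80.8 in HepG2). OCLN, occludin (109 to 129 CPM in wild type, 59.1 and 63.3 in HepG2), was not called.

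Of 32 adhesion and surface genes, 17 were called higher in NUGC4 and 5 higher in HepG2, with a median log2 fold change of -2.08 over the 25 tested. The cadherins contrasted. CDH1, of epithelia, stood at 288, 279.6, 287 and 264 CPM in wild type, 337 in the vector library and 33.6 and 34.5 in HepG2, whereas CDH2, which hepatocytes also carry, had no count in NUGC4 and 171 and 188 CPM in HepG2. The parts of the hemidesmosome, which anchors epithelium to its basement membrane, were on the NUGC4 side: ITGB4 stood at 2584, 2783, 2814 and 2340.5 CPM in wild type, 2229.5 in the vector library and 37.6 and 42.4 in HepG2, and LAMB3, a chain of the laminin it binds, at 275 to 316 CPM in wild type, 321 in the vector library and 0.798 and 0.346 in HepG2. JUP, plakoglobin, stood at 1210 to 1482 CPM in wild type and 152 and 147 in HepG2. The desmosomal DSP and DSG2 were called higher in HepG2, DSP at 218 to 236 CPM in wild type and 1099.8 and 1129.7 there. Receptor kinases of the EGFR family were called higher in NUGC4: EGFR at 216 to 248 CPM in wild type and 14.2 and 12.6 in HepG2, ERBB2 at 483 to 571 CPM in wild type and 171 and 165 in HepG2, and ERBB3 at 1364 to 1424 CPM in wild type and 675 and 654 in HepG2. EPCAM was called higher in NUGC4 against the vector library only (166 to 211 CPM in wild type, 386 in the vector library, 147 and 162 in HepG2), with log2 fold changes of -1.32 there and -0.33 against wild type.

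Mesenchymal genes gave no single direction, and 12 of 22 were tested. Of the 12, 7 were called higher in HepG2 and 4 higher in NUGC4, beside 21.4% and 24.7% of all genes tested. Their median log2 fold change was 3.07 over the 12 tested. FN1, fibronectin, which hepatocytes secrete into plasma, stood at 1.66, 1.76, 1.16 and 2.27 CPM in wild type, 22.7 in the vector library and 30764 and 29765 in HepG2, where it had rank 10 of 13241 protein-coding genes by CPM per kilobase. Its log2 fold change was 14.09 ± 0.11 (SE) against wild type and 10.38 ± 0.17 against the vector library. LOX, which crosslinks collagen, had no count in wild type and 577 and 577 CPM in HepG2. COL1A1, COL6A1, S100A4 and TWIST1 were called higher in NUGC4, COL6A1 at 100.3 to 120 CPM in wild type and 7.39 and 7.2 in HepG2. VIM, vimentin, had no count in any of the 7 libraries, and 24.4% of its exon bases are shared with genes on the other strand. POSTN and THY1 also had none. Markers of other cell types were sparse. KDR, EMCN and ERG of endothelium, NCAM1, SNAP25 and INSM1 of neural or neuroendocrine cells and CD3E, MS4A1 and HBB of blood had no count in any library. Of 9 endothelial markers PECAM1 (2.2 and 1.8 CPM) and TIE1 (2.1 and 1.66 CPM) were called higher in HepG2, and of 12 neural markers TUBB3 (127 and 118 CPM), ENO2 (128 and 113 CPM) and SYP (2.6 and 2.77 CPM). Of 12 blood markers those called higher in HepG2 included CD14 (3.49 and 2.63 CPM), and ITGAM was called higher in NUGC4 (7.8 to 9.66 CPM in wild type, none in HepG2).

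Outside the lists, the largest differences on the HepG2 side included A2M, a plasma protease inhibitor, with no count in NUGC4 and 7358 and 7442 CPM in HepG2. AGT, angiotensinogen, had 1672 and 1608 CPM in HepG2 with 1 count in NUGC4, in the vector library, and SLC2A3, a glucose transporter, had 1212 and 1052 CPM with none. On the NUGC4 side, CD44, a hyaluronan receptor, stood at 3687, 3399, 3035 and 3474 CPM in wild type and 3415 in the vector library with no count in HepG2, at least 27926-fold higher. LDHB, the B subunit of lactate dehydrogenase, stood at 318 to 370.1 CPM in wild type and 690.0 in the vector library, and GSTP1, a glutathione transferase, at 209 to 254 and 613. ITGB8, SLC1A1, PCDH7, TC2N and SNX19 stood at 457 to 533, 379 to 407, 386 to 401, 257 to 311 and 259 to 269 CPM in wild type. LDHB, GSTP1, ITGB8, SLC1A1, PCDH7, TC2N and SNX19 also had no count in either HepG2 library.

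The vector library differed from wild type in 1330 genes that were higher (7.21% of those tested) and 2377 that were lower (12.9%), all within NUGC4. Between the contrasts 31 genes were called in opposite directions and 861 only against the vector library. ZNF10, a zinc finger gene whose repressor domain is widely used in CRISPRi constructs, stood at 0.0831, 0, 0 and 0.216 CPM in wild type, 25.5 in the vector library and 2.89 and 3.32 in HepG2. It was thus higher in HepG2 than in wild type and lower than in the vector library. PPP1R15A, a stress-response phosphatase subunit, stood at 10.9 to 13 CPM in wild type, 92.7 in the vector library and 36.6 and 35.7 in HepG2. CYP17A1, of steroid synthesis, stood at 0.116 to 0.582 CPM in wild type, 6.15 in the vector library and 2 and 3.11 in HepG2. In both genes the vector library lay above HepG2 and wild type below it, and GPATCH4 showed the same order. GPR52 and TAS2R46, at 2.42 to 3.61 and 1.28 to 2.38 CPM in wild type, had no count in the vector library and 0 and 1 counts in HepG2.

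Genes that every cell uses were measured in the same 3 contrasts. Of 74 ribosomal protein genes, 48 were called higher in HepG2 against wild type but 14 in both contrasts, and 29 were called higher in the NUGC4 vector library than in wild type. Over all genes tested the shares were 29.3%, 21.4% and 7.21%, in the same order. The median log2 fold change of the ribosomal protein genes was 1.47 for HepG2 against wild type, 0.65 for HepG2 against the vector library and 0.74 for the vector library against wild type. For 26 proteasome core and RNA polymerase II subunits the medians were 1.15, 0.52 and 0.64, with 8 called higher in HepG2 in both contrasts. PSMB5, a catalytic proteasome subunit, stood at 60.3, 62.9, 79.6 and 67.1 CPM in wild type, 97.5 in the vector library and 344 and 339 in HepG2. These medians are of the size of many factor differences and far below those of the secreted liver proteins. The part of the library kind in differences of 1 to 2 log2 units, such as those of HNF4A, CEBPA and MLXIPL, was not tested beyond the second contrast, where their log2 fold changes were 1.66, 1.18 and 1.23.

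**Figure D5:**
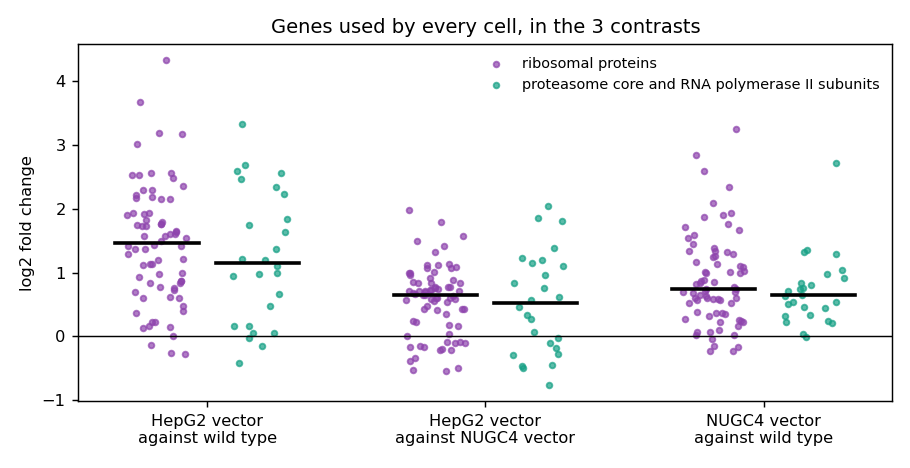
Log2 fold change of 74 ribosomal protein genes (purple) and 26 proteasome core and RNA polymerase II subunits (green) in the 3 contrasts, each point a gene and each bar a median. The ribosomal median was 1.47 for HepG2 against wild type, 0.65 for HepG2 against the NUGC4 vector library and 0.74 for the vector library against wild type.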

How the data were processed

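Poly(A) RNA of cultured cells was sequenced, per the labels. The wild-type NUGC4 libraries held far larger shares of ribosomal RNA, RN7 and histone counts than the vector and HepG2 libraries. Whether the label holds for the wild-type libraries was not tested. The authors deposited 1 table of raw read counts, with a row for each gene symbol and 14 columns. Reads were aligned with STAR 2.7.10a to hg38, per the submitters' processing notes. Not given in the sources used here are the counting tool, its annotation and its use of strand. By name, 13 columns were matched to samples, and 1 column that fits no sample was not used. Of the CRISPRi vector control, 1 library was matched.

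After ribosomal RNA, histone, RN7 and mitochondrially encoded genes were left out, 57572 symbols remained. The 7 libraries were fitted together, with 3 groups (R 4.3.3, edgeR 4.0.16, filterByExpr, TMM, quasi-likelihood test, Benjamini-Hochberg adjustment). The fit had 4 residual degrees of freedom. On simulated data 100% of 200 genes changed by log2 folds of 2 or 3 were recovered, with 0 of the unchanged genes called, among 18450. The simulation gave all genes the same low dispersion and changed only genes with more than a few counts. It set no difference between wild type and the vector library. It thus checks the code and not the error rate in these data. Alternatives were DESeq2 1.42.0 size factors and its Wald test, voom in limma 3.58.1, other filters, fold limits and gene classes, the replicate number as a block and leaving out each library. Same-numbered libraries of wild-type NUGC4 and HepG2 did not deviate together (correlations -0.06 and -0.02). These values are not independent, since the deviations of the 2 HepG2 libraries mirror each other.

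Text names followed a rule: the 4 markers, the 12 largest fold changes per direction at 20 CPM or more, up to 8 members of each list by CPM and up to 4 called against its side, all factors at 5 CPM, and 8 genes on which the contrasts differ. Other names were chosen after their values were seen. The members and the 21 lists were chosen with earlier results of these data known. Gene positions, biotypes and promoters came from RefSeq (GRCh38.p14) and exon lengths and overlaps from GENCODE v29. Intervals and floors cover counting error only. Promoters of chromosome 8 were not searched. Some list members are not reported here.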

Additional observations from a re-analysis of the deposited data

Results flagged for a closer look

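In 19 of 194 named genes, 1 of the 4 wild-type NUGC4 libraries stood farther from the rest than Dixon's 95% critical value for 4 samples allows. For continuous values with a normal spread, chance alone passes about 1 in 20 such groups. A gene with counts in only 1 of the 4 libraries always passes, so that rate does not hold for it. TF, ONECUT1, CES1, TIE1, CLDN5, CHGB and GFAP are such genes. No test of a cause was made.

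Of these, 10 genes had a mean of at least 1 CPM. Replicate 3 stood apart for CFB (77.98 CPM), ESRP2 (104.5 CPM), NR2F1 (2.444 CPM) and PEG10 (8.031 CPM). Replicate 4 stood apart for MUC1 (239.1 CPM), F11R (282.4 CPM) and ADH1C (30.29 CPM). Replicate 1 stood apart for AKR1C1 (189.9 CPM) and CEACAM1 (8.062 CPM), and replicate 2 for UGT1A1 (56.38 CPM). The other 9 genes had few counts. Replicate 1 was the only library with a count of TF, ONECUT1 and CES1 (0.08311 CPM each). Replicate 3 was high for TFF1 (1.048 CPM) and NR1H4 (0.3492 CPM) and alone in detecting TIE1 and GFAP (0.1164 CPM each). Replicate 4 was alone in detecting CLDN5 and CHGB (0.2163 CPM each).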

How the results depend on the processing

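Among the named genes called in both contrasts, no alternative that gave a value reversed the sign of HepG2 against wild type. Over named genes and alternatives together, 29 calls were lost and 20 were gained. Counts were compared by size alone, so no reversal could show in them. Of the list counts, 615 stayed within 1.5 times of those reported and 15 did not. Of the counts over all genes, 111 stayed within that range. The other 11 counts over all genes follow from the fold limit or from fitting fewer genes. With no fold limit, 4196 genes were higher and 4035 lower in the vector library than in wild type. With a limit of 2, 2273 genes were higher in HepG2 in both contrasts, 3068 were higher in HepG2 than in wild type, 2596 were higher and 3243 lower in HepG2 than in the vector library, and 293 were higher and 1365 lower in the vector library than in wild type. With protein-coding genes alone, 4121 were higher in wild type than in HepG2, and 849 were higher and 826 lower in the vector library. Leaving out 1 library gave 3819 to 4023 genes higher in HepG2 and 4270 to 4568 higher in NUGC4 in both contrasts. Without the vector library no such count can be made. With the replicate number as a block these counts were 3909 and 4444. It ended the calls of TFF1 and FOXA1 among the named genes. Whether the replicate numbers pair libraries across the lines was not settled by the correlations given above. The share of calls for HepG2 was 46.4% as reported. The ribosomal count of 14 called was 51 with no fold limit and 0 with a limit of 2, where edgeR's test and adjusted p were the same. Depth limits what can be said of genes with few counts in both lines, TFF1, MUC5AC and CRP among them.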

Other observations

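Scaled by exon length, the 100 protein-coding genes with the highest level in HepG2 held 10 members of the albumin and carrier list, 5 apolipoprotein genes, 2 coagulation genes, 1 complement gene and 27 ribosomal protein genes, while 53 were in no list. In NUGC4 wild type the highest 100 held 3 keratins, 3 adhesion genes, 2 gastric mucous genes, 2 intestinal genes and 28 ribosomal protein genes, while 62 were in no list. AHSG had rank 3, APOA2 rank 8, APOA1 rank 12, APOH rank 15 and SERPINA1 rank 16 in HepG2. KRT19 had rank 15, ITGB4 rank 20, KRT8 rank 22, KRT18 rank 23, ANPEP rank 33, JUP rank 36 and CA2 rank 48 in wild type, of 13241 genes ranked.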
